A study of Homo sapiens with 12 samples.

Results

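The S100 calcium-binding proteins are described here in NCI-H1975 and HCC827, human lines from non-small cell lung cancer. The 10 genes S100A2, S100A3, S100A4, S100A6, S100A9, S100A10, S100A11, S100A14, S100A16 and S100P were found by symbol, and all 10 were present among the 16426 genes held by both deposited tables. In the siRNA experiment each line received siDYN-1 or siDYN-2, with 48 h given in the labels, or the control siRNA siCON. The compound experiment used the small molecule 18E, known here by its code alone, at 2.5 or 5 µM for 24 h, next to DMSO. Both lines carry activating EGFR mutations, and each line, treatment and experiment had 1 library, 12 in all. The series title names LIC1, the product of DYNC1LI1, a light intermediate chain of cytoplasmic dynein. As a check of the siRNA labels, DYNC1LI1 had 5.1 and 3.04 FPKM in NCI-H1975 with siDYN-1 and siDYN-2, against 23.7 FPKM with siCON, and 2.42 and 1.22 FPKM in HCC827, against 16.3 FPKM.

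S100 proteins are small EF-hand proteins that form dimers. On binding calcium most of them open a surface that holds target proteins such as annexins or cytoskeletal proteins. Some are also released from cells, where they act on receptors such as RAGE and TLR4. Many S100 genes lie side by side in the epidermal differentiation region of chromosome 1, and several are used as markers of epithelial differentiation or of tumour spread in lung cancer.

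The values are FPKM (fragments counted per transcript length and sequencing depth), with no read totals, so the depth behind each value is unknown. FPKM totals were 486409 to 685680 per library, and 534 to 2212 genes were listed at 0. In both tables all 10 genes passed the filter of at least 1 FPKM in at least 2 of 6 libraries, S100A9 in the 18E experiment through HCC827 alone. Markers of epithelium (EPCAM, keratins, CDH1, NKX2-1) were at 7.14 to 3014 FPKM in every library. Stromal and endothelial markers were at most 1.38 and 1.47 FPKM. Of 6 myeloid markers PTPRC, ITGAM, LYZ and FCN1 were under 1 FPKM in every library, and the highest value was 11.6 FPKM for CSF1R in NCI-H1975. In bulk RNA a lower value from fewer expressing cells cannot be told apart from less RNA per cell.

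Of the 10 genes 9 lie on chromosome 1 and S100P lies on chromosome 4 (GRCh38, GENCODE 29). S100A10 (151982915 to 151994390) and S100A11 (152032506 to 152047907) are on the minus strand, and S100A9 (153357854 to 153361027) is on the plus strand. The next 6 genes, all on the minus strand, fill 82.4 kb: S100A6 (153534599 to 153536244), S100A4 (153543613 to 153550136), S100A3 (153547329 to 153549372), S100A2 (153561108 to 153567890), S100A16 (153606886 to 153613145) and S100A14 (153614255 to 153616986). S100P runs from 6693069 to 6697170 on the plus strand. S100A3 lies within the outer bounds of S100A4 on the same strand, so the split of reads between these genes is uncertain. S100A6 and S100A11 each overlap 1 antisense gene, and S100A11 has 2 named pseudogenes; use of strand is not given in the sources used here.

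Promoter sequences are shown for S100A2, S100A9 and S100P, the genes with the largest change in any single treated library. Each run of 300 bases (RefSeq, GRCh38.p14) is written 5′ to 3′ on the gene's strand and crosses its annotated start. Capitals mark matches, on either strand, to the AP-1 motif TGANTCA, the TATA box TATAAA, the CCAAT box CCAAT or the C/EBP-ATF motif TGATGNAA. For S100A2, which has another annotated start further downstream, the run is chr1:153565795-153566094 on the minus strand. The S100A9 run is chr1:153357604-153357903 and the S100P run chr4:6693628-6693927, both on the plus strand.
S100A2: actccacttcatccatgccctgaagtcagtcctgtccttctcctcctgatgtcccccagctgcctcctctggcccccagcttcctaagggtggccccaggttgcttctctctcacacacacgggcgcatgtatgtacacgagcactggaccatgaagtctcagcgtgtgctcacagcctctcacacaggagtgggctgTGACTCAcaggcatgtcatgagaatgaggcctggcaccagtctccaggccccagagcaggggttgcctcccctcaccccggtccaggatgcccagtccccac
S100A9: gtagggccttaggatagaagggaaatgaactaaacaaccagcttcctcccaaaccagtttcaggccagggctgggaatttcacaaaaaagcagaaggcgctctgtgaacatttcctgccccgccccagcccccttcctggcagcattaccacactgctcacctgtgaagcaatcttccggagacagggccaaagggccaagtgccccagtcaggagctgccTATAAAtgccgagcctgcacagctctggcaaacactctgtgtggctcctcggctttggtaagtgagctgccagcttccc
S100P: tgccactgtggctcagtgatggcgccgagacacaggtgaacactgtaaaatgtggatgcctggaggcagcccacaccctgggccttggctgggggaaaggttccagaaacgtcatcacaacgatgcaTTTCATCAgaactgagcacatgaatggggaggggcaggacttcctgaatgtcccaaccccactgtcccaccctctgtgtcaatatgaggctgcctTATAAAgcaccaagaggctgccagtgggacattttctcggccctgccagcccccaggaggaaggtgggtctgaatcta
The S100A2 run held 1 AP-1 match, 52 bases before the start, and no TATA box. The S100A9 and S100P runs each held 1 TATA box, 29 and 28 bases before the start, and the S100P run also held 1 C/EBP-ATF match. Among all 35116 RefSeq promoters of this length 7.71% held the AP-1 motif, 11.5% the TATA box, 34.6% the CCAAT box and 3.62% the C/EBP-ATF motif. Over the 12 promoters of the 10 genes these were found in 2, 3, 2 and 1. A match describes letters only and shows no binding.

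Levels per transcript length ran from 0.45 FPKM for S100A9 to 12141 FPKM for S100A6. S100A6 (calcyclin), which binds annexins and the calcyclin-binding protein, was the highest of the 10 in every library. It ranked 1 among all genes in NCI-H1975 with siDYN-1 and with siDYN-2, against rank 4 with siCON. In the compound experiment its rank in NCI-H1975 was 14 with DMSO, 7 at 2.5 µM and 6 at 5 µM 18E. S100A6, S100A10 and S100A11 together gave 96.9% to 98.6% of the summed S100 FPKM in NCI-H1975 and 73.1% to 90.6% in HCC827. S100A3 and S100A4 had at most 13.1 and 36.7 FPKM in any library.

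**Figure D1:**
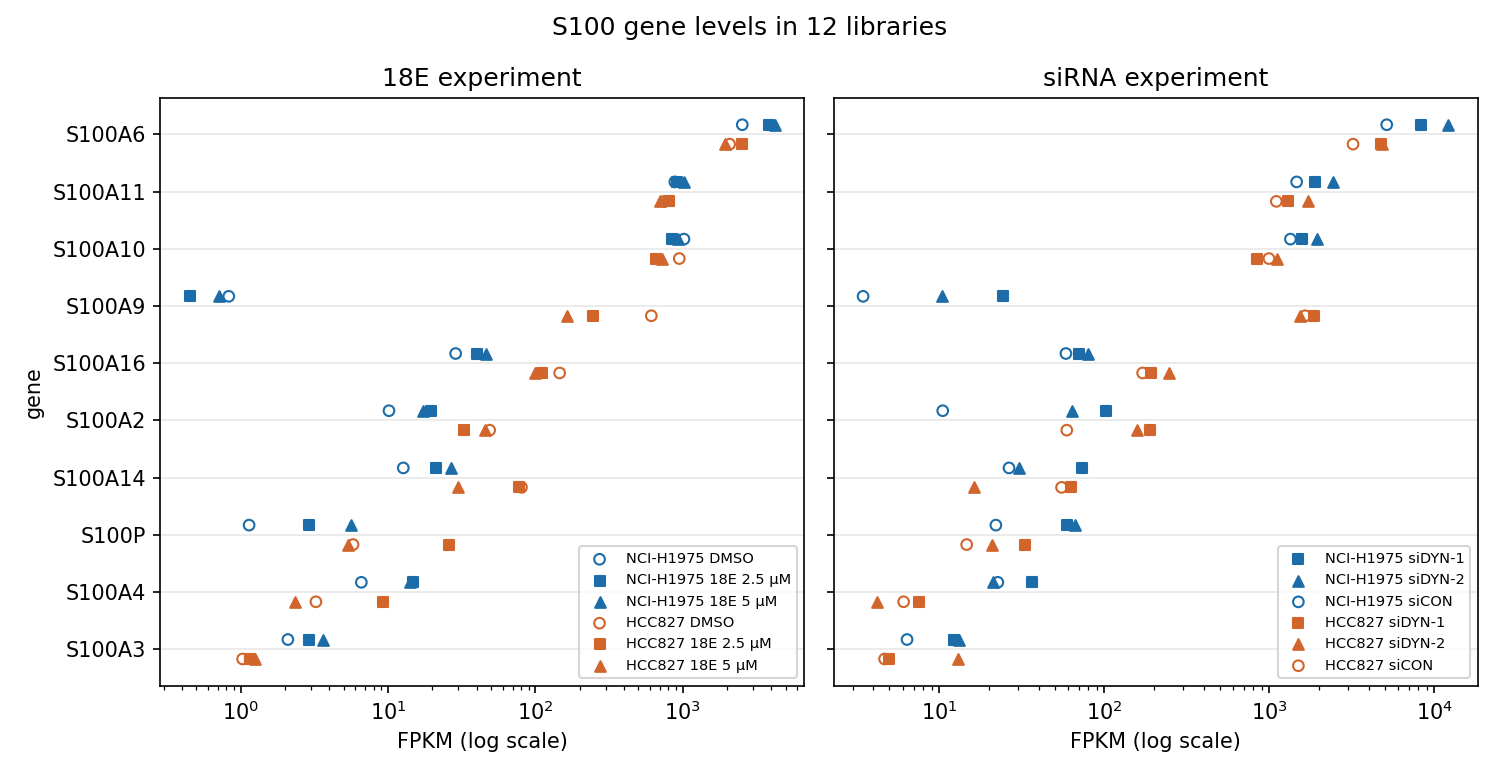
FPKM of the 10 S100 genes (rows) in each of the 12 libraries, on a log axis, with NCI-H1975 in blue above HCC827 in orange and 1 point per library (open circles are DMSO or siCON). S100A6 is the rightmost gene throughout, and the lines lie furthest apart for S100A9, at 0.45 to 0.83 FPKM in NCI-H1975 and 164 to 613 FPKM in HCC827 of the 18E experiment.

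With siDYN, 6 of the 10 S100 genes (S100A2, S100A3, S100A6, S100A11, S100A16 and S100P) were above siCON in all 4 treated libraries, a pattern that 24.9% of all 11718 tested genes showed. None was below siCON in all 4, as 25.6% of all genes were. All 10 had a positive fitted change, with a median of 0.63 on the log2(FPKM + 1) scale, against 0.01 for all tested genes, of which 50.9% were positive. The count of 10 did not hold under every setting. S100A14 (-0.09) and S100A4 (just below 0) were negative with equal FPKM totals, and S100A14 (-0.07) with quantile normalization. Without NCI-H1975 siCON S100A14 (-0.76), S100A4 (-0.09) and S100A10 (-0.04) were negative, and without either siDYN-1 library S100A14 and S100A4 were. The median ran from 0.39 without NCI-H1975 siCON to 0.85 without HCC827 siCON. With limma 0 of the 10 passed adjusted p under 0.05, as did 0 of all tested genes (0%). Without adjustment 6 of the 10 were higher at p under 0.05 and 0 lower, where 12.6% of all genes were higher and 13.4% lower (26% in either direction).

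S100A2, an S100 protein of epithelial cell nuclei, had the largest change of the family. It had 102 FPKM with siDYN-1 and 64.2 FPKM with siDYN-2 in NCI-H1975, against 10.5 FPKM with siCON. In HCC827 it had 190 FPKM with siDYN-1 and 158 FPKM with siDYN-2, against 59.3 FPKM with siCON. Every siDYN library was thus above the siCON library of its own line, by 9.71- and 6.10-fold in NCI-H1975 and by 3.21- and 2.67-fold in HCC827. The fitted log2 change was 2.18 ± 0.32 (SE; limma, adjusted p = 0.0876, higher in 4 of 4 libraries), larger than that of 99.9% of tested genes. Without HCC827 siDYN-1 it passed (2.22, adjusted p = 0.0423). The 6 fits that each left out 1 library gave changes of 1.53 to 2.83 and adjusted p of 0.0423 to 0.748.

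S100P, a RAGE ligand that also binds ezrin, followed the same direction. It had 59.2 FPKM with siDYN-1 and 66.2 FPKM with siDYN-2 in NCI-H1975, against 22.1 FPKM with siCON. In HCC827 it had 33.2 FPKM with siDYN-1 and 21.0 FPKM with siDYN-2, against 14.7 FPKM with siCON. Its fitted log2 change was 1.14 ± 0.23 (adjusted p = 0.0973), with every siDYN library above its control.

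The annexin partners S100A6, S100A11 and S100A10 were the most abundant of the 10 in NCI-H1975. S100A6 had 8300 FPKM with siDYN-1 and 12141 FPKM with siDYN-2 in NCI-H1975, against 5147 FPKM with siCON. In HCC827 it had 4734 and 4810 FPKM with siDYN-1 and siDYN-2, against 3217 FPKM with siCON. The fitted change was 0.77 ± 0.18 (adjusted p = 0.101). S100A11, a partner of annexin A1, had 1903 and 2449 FPKM in NCI-H1975 with siDYN-1 and siDYN-2, against 1465 FPKM with siCON, and 1292 and 1721 FPKM in HCC827, against 1104 FPKM. For S100A11 the siDYN-2 library was above the siDYN-1 library in both lines, and the change from siCON was 0.50 ± 0.17 (adjusted p = 0.138). S100A10 (p11), which has lost calcium binding and joins annexin A2 in a membrane complex, had 1582 and 1958 FPKM in NCI-H1975 with siDYN-1 and siDYN-2, against 1344 FPKM with siCON. In HCC827 S100A10 had 837 and 1118 FPKM with siDYN-1 and siDYN-2, against 995 FPKM with siCON, so the siCON library lay between them. The S100A10 fit was 0.17 ± 0.18 (adjusted p = 0.563), and with quantile normalization the small HCC827 siDYN-2 change was -0.02 in place of 0.17.

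S100A9 joins S100A8 as calprotectin, a released protein. In NCI-H1975 it had 24.2 FPKM with siDYN-1 and 10.4 FPKM with siDYN-2, against 3.46 FPKM with siCON. In HCC827 it had 1855 FPKM with siDYN-1 and 1535 FPKM with siDYN-2, against 1650 FPKM with siCON. Both NCI-H1975 siDYN libraries were above siCON, while in HCC827 siCON lay between them, and the 0.17 of HCC827 siDYN-1 became -0.05 with quantile normalization. The fit over both lines was 0.98 ± 0.47 (adjusted p = 0.237), and it was 0.03 without NCI-H1975 siCON, 0.60 without NCI-H1975 siDYN-1 and 1.93 without HCC827 siCON. The change in NCI-H1975 exceeded that in HCC827 by 1.89 ± 0.67 log2 units, which did not pass (limma interaction, unadjusted p = 0.0337, adjusted p = 1.00). The same held for S100A2, whose change in NCI-H1975 was larger by 1.30 ± 0.46 (unadjusted p = 0.0343, adjusted p = 1.00). These were the 2 of 10 genes with unadjusted p under 0.05 in that direction, where 0.674% of tested genes had it (0.845% in the other and 1.52% in either), and 0% of all genes passed the adjusted threshold.

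S100A14 is a divergent S100 protein of epithelia whose values differed between the siRNAs. It had 73.0 FPKM with siDYN-1 and 30.6 FPKM with siDYN-2 in NCI-H1975, against 26.5 FPKM with siCON. In HCC827 it had 62.9 FPKM with siDYN-1 and 16.2 FPKM with siDYN-2, against 55.1 FPKM with siCON. The siDYN-2 library was below the siDYN-1 library in both lines, with a fitted difference of -1.56 ± 0.40 (siDYN-2 minus siDYN-1, adjusted p = 0.113), lower than that of all but 0.0427% of genes. With either siCON library left out the difference stayed at -1.56, as siCON is not part of it and only the spread was estimated anew. The 6 fits that each left out 1 library gave -2.20 to -0.92. Over both siRNAs the change from siCON was 0.03 ± 0.62 for S100A14 (adjusted p = 0.982) and 0.10 ± 0.29 for S100A4 (adjusted p = 0.840). S100A4 (metastasin), which binds nonmuscle myosin and is tied to cell motility, had the same order. It had 36.7 FPKM with siDYN-1 and 21.3 FPKM with siDYN-2 in NCI-H1975, against 22.7 FPKM with siCON. In HCC827 S100A4 had 7.57 and 4.19 FPKM with siDYN-1 and siDYN-2, against 6.09 FPKM with siCON. Its siDYN-2 minus siDYN-1 difference was -0.74 ± 0.16 (adjusted p = 0.0801), and it too stayed the same with either siCON library left out. In this comparison 0 of the 10 genes passed with all libraries, against 0.606% of all genes. Before adjustment 3 had p under 0.05 and were higher with siDYN-2 (S100A3, S100A10, S100A11) and 2 lower (S100A4, S100A14), where 13% and 7.9% of all genes were (20.9% in either direction).

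S100A16, a broadly expressed relative of S100A14, was above siCON by 0.26 (siDYN-1) and 0.43 (siDYN-2) log2 units in NCI-H1975, and by 0.18 and 0.53 in HCC827 (fit 0.35 ± 0.15, adjusted p = 0.192). With quantile normalization the HCC827 siDYN-1 value of S100A16 was -0.02. S100A3, a cysteine-rich protein best known from the hair cuticle, had 12.3 and 13.1 FPKM with siDYN-1 and siDYN-2 in NCI-H1975, against 6.39 FPKM with siCON. In HCC827 S100A3 had 4.94 and 13.01 FPKM, against 4.67 FPKM, so its siDYN-1 library there was close to the control, and it was 0.02 below it with equal FPKM totals. The S100A3 fit was 0.79 ± 0.32 (adjusted p = 0.184). As a share of all summed FPKM the 10 genes gave 1.81% with siDYN-1 and 2.46% with siDYN-2 in NCI-H1975, against 1.32% with siCON, and 1.41% and 1.52% in HCC827, against 1.20%.

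**Figure D2:**
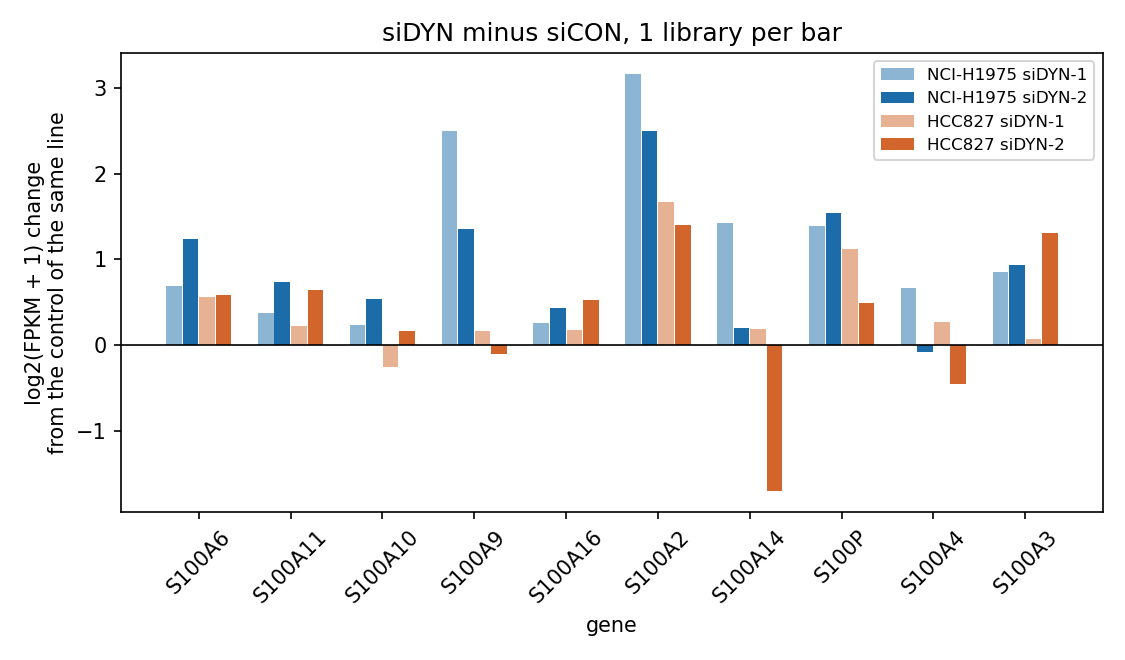
Change of log2(FPKM + 1) from the siCON library of the same line, 1 bar per siDYN library, for each S100 gene. S100A2 has the tallest bars (3.16, 2.50, 1.67 and 1.40), S100A9 is high in NCI-H1975 only by these bars (2.50 and 1.35, against 0.17 and -0.10 in HCC827), and S100A14 with siDYN-2 in HCC827 is the lowest at -1.71.

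Genes related to the family had fitted siDYN changes in both directions, apart from other S100 genes. Of all tested genes 50.9% had a positive change. Of 10 other S100 genes 4 were tested, all 4 with positive changes: S100A7 (psoriasin, 0.62 ± 0.26), S100A13 (0.57 ± 0.12, adjusted p = 0.0973), S100A8 (0.26 ± 0.51) and S100A5 (0.23 ± 0.16). Only S100A13 was above siCON in every siDYN library. In NCI-H1975 with siCON, siDYN-1 and siDYN-2, S100A7 had 0, 0 and 0.85 FPKM and S100A8 0.13, 1.14 and 0.51 FPKM. S100A5 had 1.12, 1.03 and 1.12 FPKM there, and at most 0.52 FPKM in HCC827. With siDYN-2 in HCC827 the S100A8 change was -1.12. Of 13 annexins 12 were tested, 8 positive and 4 negative with a median of 0.11. They were led by ANXA8L1 (1.07 ± 0.55), ANXA8 (0.80 ± 0.55) and ANXA1 (0.50 ± 0.16). ANXA8L1 and ANXA8 are copies so alike that the division of reads between them is uncertain. ANXA6, counted among the 8, passed the filter only through the siDYN libraries of NCI-H1975 (1.19 and 1.54 FPKM, against 0.53 FPKM with siCON). Its direction is therefore not read. Of 16 S100 receptors and targets 12 were tested, 6 positive and 6 negative with a median of -0.12. PPFIBP1 (liprin beta, a partner of S100A4) had -0.71 ± 0.15, AHNAK, a giant scaffold bound by the S100A10 and annexin A2 complex, -0.67 ± 0.14 and the S100P target IQGAP1 -0.65 ± 0.21. Of 27 other EF-hand proteins all 27 were tested, 9 positive and 18 negative with a median of -0.07, among them RCN1 (-0.60 ± 0.25), CHP1 (-0.45 ± 0.15) and RCN2 (-0.41 ± 0.28). In these lists 0 genes passed adjusted p under 0.05 (limma). Those with unadjusted p under 0.05 were 1 of 4 other S100 genes and 1 of 12 annexins higher, and 3 of 12 receptors and targets lower. Of the 27 EF-hand genes 1 was higher and 5 lower. Of all tested genes 12.6% were higher and 13.4% lower. All 7 epithelial markers had negative fitted changes with siDYN. Their summed level was 5683 and 5915 FPKM with siDYN-1 and siDYN-2 in NCI-H1975, against 6040 FPKM with siCON, and 8820 and 7741 FPKM in HCC827, against 9920.4 FPKM; their part in the S100 values was not tested.

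With 18E more of the family lay above DMSO in NCI-H1975 than in HCC827. In NCI-H1975 8 of the 10 genes were above DMSO at 2.5 µM and 8 at 5 µM, where 47.7% and 41.5% of all 11953 tested genes were, and the median change of the 10 was 0.53 and 0.69. In HCC827 5 were above DMSO at 2.5 µM and 1 at 5 µM, where 52.1% and 42.7% of all genes were, and the median was 0.02 and -0.23. S100A2, S100A14 and S100A16 were higher in both treated NCI-H1975 libraries and lower in both treated HCC827 libraries, as were 5.81% of all genes. The fitted 5 µM changes had a median of 0.18 against -0.09 for all genes, and the median was -0.34 without NCI-H1975 at 5 µM, -0.13 without NCI-H1975 DMSO, 0.58 without HCC827 DMSO and 0.07 with equal FPKM totals. At this dose 0 of the 10 passed (limma, smallest adjusted p = 0.190 for S100A9), against 0.00837% of all genes. Before adjustment 0 of the 10 had p under 0.05 at 5 µM, against 26.8% of all genes (10% higher and 16.8% lower). At 2.5 µM the median was 0.19 against 0.00 for all genes, and 0 of the 10 and 0% of all genes passed. At that dose S100A4 was higher and S100A10 lower with unadjusted p under 0.05, where 3.25% and 2.01% of all genes were (5.26% in either direction).

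S100A9 had its highest 18E-table levels in HCC827, and these were lower at both doses. It had 613 FPKM with DMSO, 244 FPKM at 2.5 µM and 164 FPKM at 5 µM in HCC827, and its partner S100A8 had 4.39, 2.25 and 1.34 FPKM. In NCI-H1975 S100A9 had 0.83, 0.45 and 0.71 FPKM, under the 1 FPKM minimum in all 3 libraries, so it passed the filter through HCC827. All 4 treated libraries were below DMSO, as were 23.8% of all genes, and the fitted change was -0.83 ± 0.41 at 2.5 µM and -0.99 ± 0.41 at 5 µM. The NCI-H1975 values are too low to show a fold on this scale, which also limits the line difference for S100A9. The 5 µM change was -1.65 without NCI-H1975 at 5 µM and -1.69 without NCI-H1975 DMSO. In each of these fits 1 group held HCC827 alone, while the other NCI-H1975 libraries still entered through the line block. The HCC827 libraries by themselves gave -1.89. The smallest change with a library left out was -0.30. The summed level of the 6 myeloid markers in HCC827 was 2.12 FPKM with DMSO, 3.95 FPKM at 2.5 µM and 5.32 FPKM at 5 µM, and its part in the S100A9 values was not tested.

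S100P and S100A4 peaked at 2.5 µM in HCC827. S100P had 5.79 FPKM with DMSO, 25.9 FPKM at 2.5 µM and 5.35 FPKM at 5 µM in HCC827. The NCI-H1975 libraries held 1.14, 2.91 and 5.63 FPKM of S100P in the same order. The 2.5 µM libraries were above DMSO in both lines (1.43 ± 0.62, adjusted p = 0.915), while at 5 µM only the NCI-H1975 library was. The 2.5 µM value was 0.44 without HCC827 at 2.5 µM and 2.42 without NCI-H1975 at 2.5 µM. S100A4 had 3.24 FPKM with DMSO, 9.25 FPKM at 2.5 µM and 2.34 FPKM at 5 µM in HCC827, and 6.59, 14.7 and 14 FPKM in NCI-H1975. Its fitted change at 2.5 µM was 1.16 ± 0.39 (unadjusted p = 0.0256, adjusted p = 0.915). It stayed at 1.16 with either 5 µM library left out, as these are not part of it. Without HCC827 at 5 µM the 5 µM changes were 1.04 for S100A4 and 1.91 for S100P, where only NCI-H1975 remained at that dose. Without NCI-H1975 at 5 µM they were -0.40 and -0.38. In the direct test of 5 µM against 2.5 µM, S100A4 had -0.84 ± 0.39 (adjusted p = 0.415) and S100P -0.66 ± 0.62 (adjusted p = 0.603), and 0 of the 10 genes and 0% of all genes passed. That test had 0 of the 10 genes and 11.8% of all genes at unadjusted p under 0.05 (3.71% higher and 8.05% lower). Without NCI-H1975 at 5 µM, S100A4 (-1.56, adjusted p = 0.00322), S100A14 (-1.53, 0.00833) and S100P (-1.80, 0.0125) were lower at 5 µM than at 2.5 µM, where 5 µM rests on HCC827 alone. Without HCC827 at 5 µM the values were -0.12 for S100A4, 0.50 for S100A14 and 0.48 for S100P, so S100A14 and S100P turned direction, and none of these passed.

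S100A14 had 12.7 FPKM with DMSO, 21.3 FPKM at 2.5 µM and 26.7 FPKM at 5 µM in NCI-H1975. In HCC827 S100A14 had 80.5, 77.9 and 30.0 FPKM, so its treated libraries lay on opposite sides of DMSO in the lines. Its neighbour S100A16 had 28.8, 40.2 and 46.0 FPKM in NCI-H1975, while HCC827 held 146, 111 and 99.0 FPKM. For S100A2 the NCI-H1975 series was 10.2, 19.6 and 17.3 FPKM and the HCC827 series 49.0, 32.6 and 45.8 FPKM. The summed level of the 7 epithelial markers was 3742 FPKM with DMSO, 3797 FPKM at 2.5 µM and 4196 FPKM at 5 µM in NCI-H1975, while in HCC827 it was 8369, 9251 and 6456 FPKM; its part in these results was not tested. The NCI-H1975 change over both doses exceeded the HCC827 change by 1.58 ± 0.79 for S100A14, 1.04 ± 0.31 for S100A16 and 1.13 ± 0.41 for S100A2. None of these passed (limma interaction, adjusted p = 0.999 for each, unadjusted p = 0.0999, 0.0176 and 0.0378), and 0% of all genes did. Apart from S100A9, treated below, every gene of the family had a positive difference, where 49.8% of all genes had one. With S100A9 counted the median of the 10 was 0.57, against 0.00 for all genes. Without HCC827 at 5 µM S100A4 (-0.26) and S100P (-0.74) turned negative, as did S100P (-0.08) without NCI-H1975 at 5 µM, and the median ran from 0.39 without HCC827 at 5 µM to 1.01 without HCC827 at 2.5 µM. For S100A9 the NCI-H1975 values are under 1 FPKM, so its difference is not read. Of the other 9, 2 had unadjusted p under 0.05 in that direction (S100A2 and S100A16), where 0.895% of all genes did (0.82% in the other and 1.72% in either). The 5 µM change of S100A14 was -0.19 ± 0.54 over both lines and -1.20 without NCI-H1975 at 5 µM, where only HCC827 remained at that dose. Its direction turned to 0.83 without HCC827 at 5 µM and to 0.60 without HCC827 DMSO, and it was -0.98 without NCI-H1975 DMSO.

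**Figure D3:**
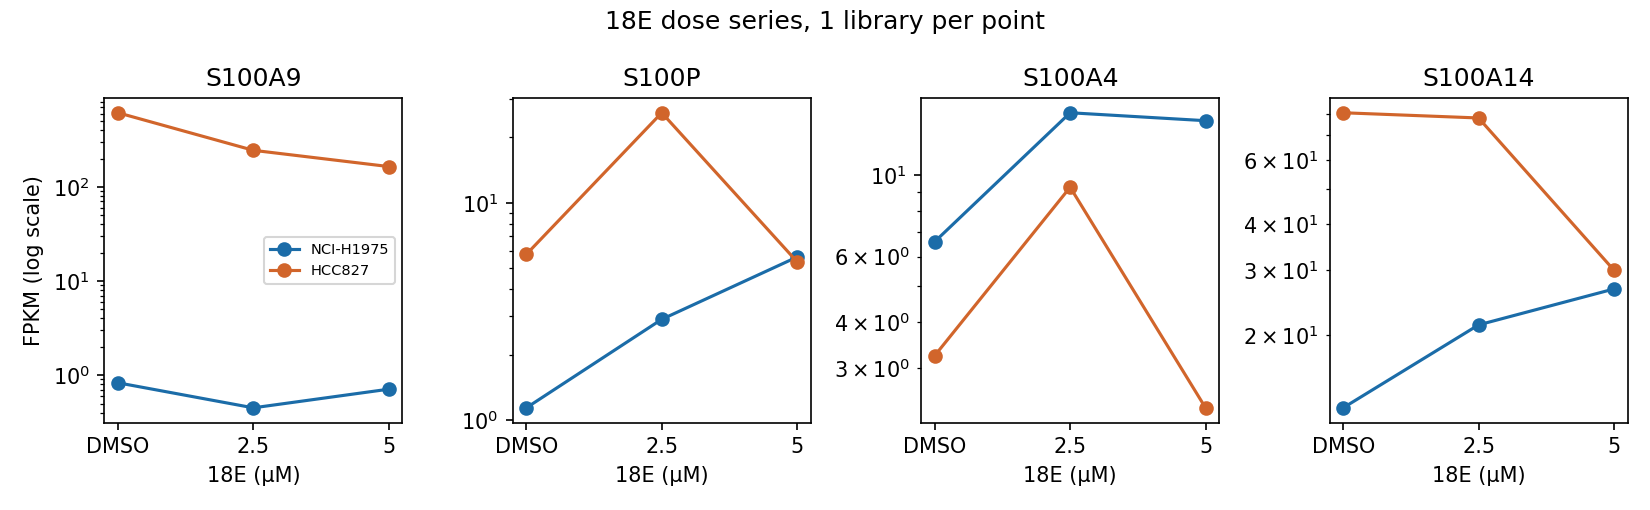
FPKM on log axes against 18E dose (DMSO, 2.5 and 5 µM) for S100A9, S100P, S100A4 and S100A14, with 1 library per point, NCI-H1975 in blue and HCC827 in orange. In HCC827 S100A9 is lower at each dose, S100P and S100A4 peak at 2.5 µM (25.9 and 9.25 FPKM), and S100A14 is at 30.0 FPKM at 5 µM, next to 26.7 FPKM in NCI-H1975.

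S100A6 had 2538 FPKM with DMSO, 3840 FPKM at 2.5 µM and 4219 FPKM at 5 µM in NCI-H1975. The HCC827 libraries held 2083, 2509 and 1933 FPKM of S100A6, with the 5 µM library below DMSO. S100A11 had 885, 914 and 1015 FPKM in NCI-H1975, next to 752, 804 and 706 FPKM in HCC827, with a 5 µM change of 0.05 ± 0.14. The NCI-H1975 changes of S100A11 turned negative at 5 µM with quantile normalization and at 2.5 µM with equal FPKM totals. S100A10 had 1020.3, 851 and 923 FPKM in NCI-H1975, next to 948, 664 and 719 FPKM in HCC827, below DMSO in all 4 treated libraries. Its change at 2.5 µM was -0.39 ± 0.13 (adjusted p = 0.915), and ANXA2, its partner in the membrane complex, had -0.42 ± 0.11. ANXA2 itself had 1165 FPKM with DMSO, 883 FPKM at 2.5 µM and 931 FPKM at 5 µM in NCI-H1975; HCC827 held 1354, 995 and 1053 FPKM. S100A3 was above DMSO in all 4 treated libraries, as were 17.8% of all genes, at no more than 3.63 FPKM.

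**Figure D4:**
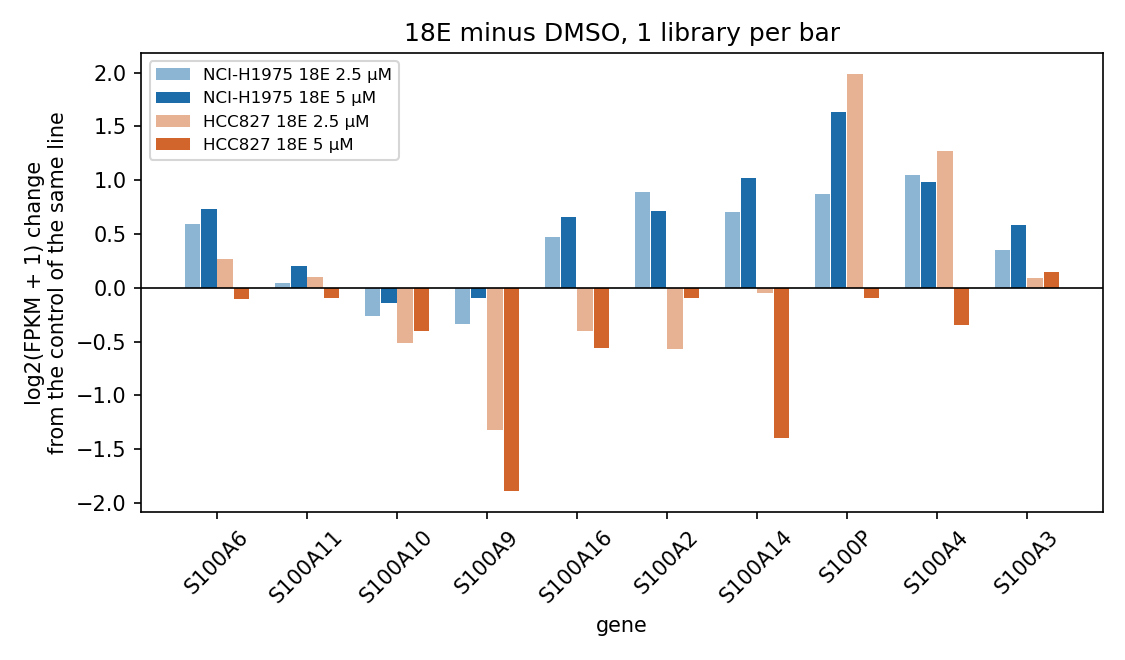
Change of log2(FPKM + 1) from the DMSO library of the same line, 1 bar per 18E library, for each S100 gene. Bars of the lines point opposite ways for S100A14, S100A16 and S100A2, and the lowest bar is S100A9 at 5 µM in HCC827 (-1.89).

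Related lists had negative medians at 5 µM 18E, as did all genes, of which 41.6% had positive changes. Of the other S100 genes 2 of 4 tested were positive, S100A13 and S100A5. S100A5 passed the filter only through the treated NCI-H1975 libraries (1.14 and 1.19 FPKM, against 0.55 FPKM with DMSO), so its direction is not read. S100A7, a keratinocyte S100, had -1.59 ± 0.63. Its level in HCC827 was 19.1 FPKM with DMSO, 8.45 FPKM at 2.5 µM and 1.51 FPKM at 5 µM. In NCI-H1975 it was 0.13 FPKM with DMSO and 0 FPKM at both doses, so S100A7 passed the filter through HCC827. So did S100A8, at no more than 0.13 FPKM in NCI-H1975. Annexins were 4 positive and 7 negative (median -0.22), led by ANXA1 (0.99 ± 0.13, adjusted p = 0.10) and ANXA13 (-0.75 ± 0.39). ANXA13 was at 0.03 to 0.07 FPKM in NCI-H1975 and also passed the filter through HCC827. Receptors and targets were 3 positive and 10 negative (median -0.26), with the S100A6 partner CACYBP at 0.98 ± 0.37, IQGAP1 at -0.90 ± 0.18 and AHNAK at -0.79 ± 0.16. AGER, which encodes RAGE, is given as values only, since it passed the filter through HCC827 with DMSO and 2.5 µM alone. It had 1.64, 2.26 and 0.86 FPKM in HCC827 with DMSO, 2.5 µM and 5 µM, and 0.81, 0.36 and 0.17 FPKM in NCI-H1975. Other EF-hand proteins were 6 positive and 20 negative (median -0.28), with CALML4 at -0.82 ± 0.19 and CALM3 at -0.75 ± 0.15. No gene of these lists passed (limma). Those with unadjusted p under 0.05 were 1 of 4 other S100 genes lower (S100A7) and, of 11 annexins, 1 higher and 2 lower. Of 13 receptors and targets 1 was higher and 2 lower, and of 26 EF-hand genes 8 were lower. Of all tested genes 10% were higher and 16.8% lower.

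S100A9 passed the filter in the 18E libraries through HCC827, where it is high, so its difference there is given as values with no test. Of the other 9 genes 3 were higher and 3 lower in NCI-H1975 than in HCC827 in the 18E libraries (limma, adjusted p under 0.05), where 30.7% of all genes were higher and 21.2% lower. In the siRNA libraries 5 of the 10 were higher and 3 lower, where 34.4% and 22.6% of all genes were. Each line had 3 libraries of different treatment in each table, and in either direction 6 of 9 and 8 of 10 were called, against 52% and 57% of all genes. With no filter S100A4 (adjusted p = 0.0619), S100A6 (0.0758) and S100A14 (0.0786) were no longer called in the 18E libraries, which left 3 of the 9. At unadjusted p under 0.05 there were 9 of 9 and 8 of 10, against 58.5% (34.2% higher and 24.3% lower) and 62.5% (37.6% higher and 25% lower) of all genes.

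S100A9 was at 0.45 to 0.83 FPKM in NCI-H1975 and 164 to 613 FPKM in HCC827 of the 18E table. In the siRNA table it was 3.46 to 24.2 FPKM in NCI-H1975 and 1535 to 1855 FPKM in HCC827. The fitted difference of S100A9 in the siRNA table was -7.27 ± 0.40 (adjusted p = 5.33e-05). S100A16 was also lower in NCI-H1975 in both tables, at -1.61 ± 0.24 (adjusted p = 0.00391) and -1.53 ± 0.10 (adjusted p = 8.46e-05), as was S100A2, at -1.41 ± 0.28 (adjusted p = 0.0091) and -1.52 ± 0.27 (adjusted p = 0.00393). On the other side S100A4 was higher in NCI-H1975 by 1.21 ± 0.32 (adjusted p = 0.0232) and 1.99 ± 0.13 (adjusted p = 9.13e-05), and S100A6 by 0.68 ± 0.17 (adjusted p = 0.0196) and 0.94 ± 0.14 (adjusted p = 0.00195), the first of each pair being lost with no filter.

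S100A10 and S100A11 passed in the siRNA table, with 0.72 ± 0.12 (adjusted p = 0.0029) and 0.49 ± 0.09 (adjusted p = 0.00392), and not in the 18E table, with 0.27 ± 0.11 (adjusted p = 0.0746) and 0.31 ± 0.11 (adjusted p = 0.0605). S100A3 was higher in NCI-H1975 in the 18E table (0.84 ± 0.16, adjusted p = 0.00765), a call lost without either 2.5 µM library (adjusted p = 0.0562 without NCI-H1975 and 0.0596 without HCC827), and not in the siRNA table (0.52 ± 0.22, adjusted p = 0.0874, and 0.77 with 0.0160 and 0.0155 without HCC827 or NCI-H1975 siDYN-2). S100P had opposite signs, with -1.46 ± 0.51 (adjusted p = 0.0564) among the 18E libraries and 0.99 ± 0.20 (adjusted p = 0.00703) among the siRNA libraries. With 1 library of a treatment left out, its partner no longer bears on the line difference, so either omission gives the same estimate. For S100P in the 18E table it was -2.22 without a 5 µM library, -0.80 without a 2.5 µM library and -1.36 without a DMSO library. S100A14 was lower in NCI-H1975 in the 18E table (-1.52 ± 0.44, adjusted p = 0.0321), a call lost with either 2.5 µM library left out. For the siRNA libraries S100A14 had 0.02 ± 0.33 (adjusted p = 0.964), and leaving out 1 library gave -0.41 to 0.54.

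**Figure D5:**
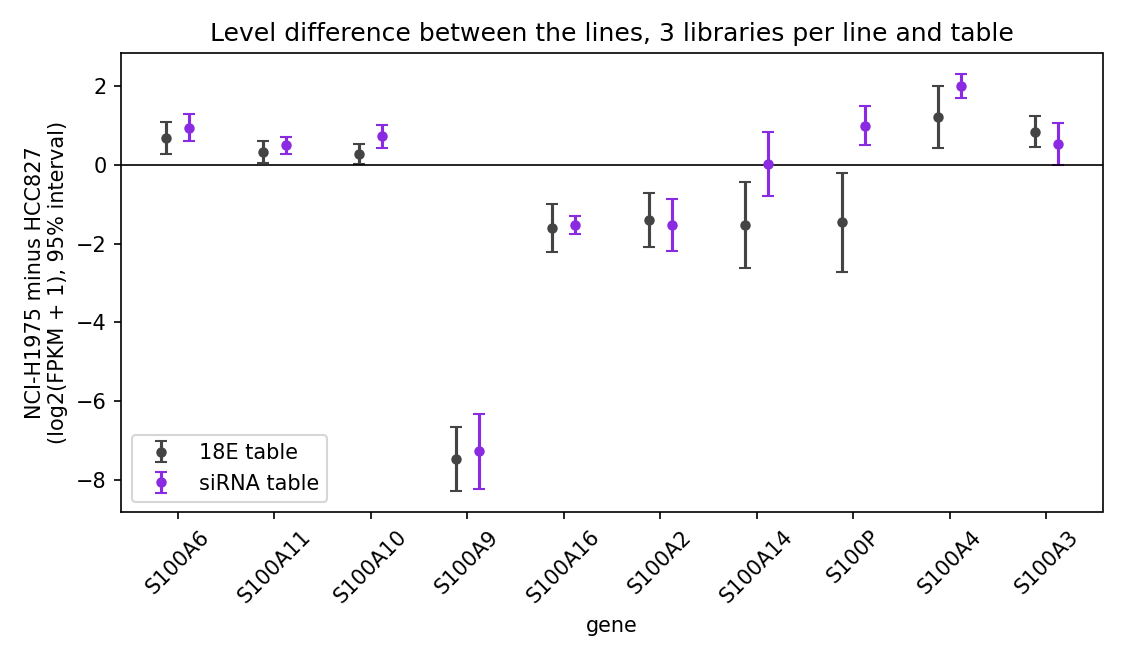
Fitted difference of log2(FPKM + 1), NCI-H1975 minus HCC827, with its 95% interval, for the 18E and the siRNA libraries (3 per line and experiment). S100A9 lies at -7.46 (18E, a description only, since HCC827 alone passed it through the filter) and -7.27 (siRNA), S100A16 and S100A2 below 0 and S100A4 and S100A6 above 0 in both tables, while S100P lies at -1.46 in one and 0.99 in the other.

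The genes whose values went most like those of the 3 most changed members were listed from 11449 genes tested in both tables, by Pearson's r over the 12 libraries after centring each line in each table. For S100A2 they included UBL5 (r = 0.95) and HEXIM2 (0.95), and the closest member was S100A6 (0.75). For S100A9 they were ZNF467 (0.95), BDH2 (0.93) and LSS (0.93), and the closest member was S100A2 (0.66). For S100P they were RPL17 (0.98), SEC11A (0.94) and CSTA (0.94), and the closest member was S100A6 (0.80). The 12 values were centred on the mean of the 3 libraries of their line and table, so they are not independent of each other. These are descriptions without a test, taken as the highest of many.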

How the data were processed

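RNA sequencing was run on 12 libraries, on Trizol-extracted RNA prepared with the TruSeq kit of Illumina (labels' protocols). Values are FPKM as deposited by the authors, per the file headers, with 2 decimals and 1 table per experiment. The submitters' processing notes name Bowtie 0.12.2, GRCh38.p12 and mm8 without roles; mm8 is a mouse build, and the quantifier is not given in the sources used here. Complete genes were 16760 of 16800 lines for 18E and 17442 of 17462 for the siRNAs; incomplete lines were left out. Ratios of low values between 2 libraries of each table gave no clear steps of whole reads. The lowest values were not checked in this way, and depth is unknown.

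Values were set to log2(FPKM + 1), a scale on which fold changes of low genes are understated. Genes that reached 1 FPKM in 2 or more of the 6 libraries were fitted with limma 3.58.1 (R 4.3.3; trend in the prior variance, two-sided, Benjamini-Hochberg over all tested genes), each table on its own, with cell line as a block because libraries of a line pair across treatments. The lines serve as replicates (n = 2); nothing in the labels says they were cultured more than once, so a p-value reflects only how far these libraries differ among themselves. The siDYN against siCON fit took both siRNAs as 1 treatment, so the siRNAs also served as replicates there. Interactions used doses or siRNAs as replicates. The fits were tested on simulated data. Positions are from GENCODE 29. All 10 members are named; of other lists up to 4 genes of largest fitted change are. Some genes that this rule names are not reported here. The members and lists were chosen with earlier results of these data known. Alternatives were a pseudocount of 0.1, no filter, no variance trend, no line block, quantile normalization, scaling to equal totals, and each library left out.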

Additional observations from a re-analysis of the deposited data

Results flagged for a closer look

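For 3 S100 genes both 18E libraries of NCI-H1975 lay above DMSO and both of HCC827 below it. On the log2 scale S100A14 had 0.71 (2.5 µM) and 1.02 (5 µM) in NCI-H1975, next to -0.05 and -1.39 in HCC827, a difference of 1.58 over both doses. S100A16 had 0.47 and 0.66 in NCI-H1975, next to -0.40 and -0.56 in HCC827, a difference of 1.04. S100A2 had 0.89 and 0.72 in NCI-H1975, next to -0.57 and -0.09 in HCC827, a difference of 1.13. The test of each difference did not pass (limma interaction, adjusted p = 0.999), and 5.81% of all genes had this pattern of signs.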

How the results depend on the processing

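Of 1000 values of single S100 genes under the alternatives, 33 changed their side of the threshold, 7 lost and 26 gained, and 0 called values changed sign. Of these, 4 losses and 24 gains came from leaving out 1 library, after which the lone library of a group is assumed to vary like the others; the cause was not tested. With no filter 4 in place of 7 S100 genes, S100A9 counted in both, passed between the lines in the 18E table (S100A4, S100A6 and S100A14 lost). The median siDYN difference between lines, 0.41, was 0.52 with quantile normalization and 0.36 with equal FPKM totals. Leaving out each library in turn gave 0 to 2 S100 genes called for 5 µM 18E, 0 to 1 for 2.5 µM, 0 to 3 for 5 against 2.5 µM, 0 to 1 for siDYN and 0 to 2 for siDYN-2 against siDYN-1. The median over the 10 genes then ran from -0.34 to 0.58 at 5 µM, from -0.20 to 0.64 at 2.5 µM, from -0.42 to 0.26 for 5 against 2.5 µM, from -0.33 to 0.21 for siDYN-2 against siDYN-1, from 0.43 to 0.63 for the siDYN difference between lines and from 0.33 to 0.58 for the siRNA line levels. The line differences in response had no value without a control library. Without the line block, which pairs libraries of a line, 0 S100 genes passed in the 5 treatment comparisons; the fitted changes, such as the siDYN median of 0.63, cannot move in this balanced design, so only the p-values bear on it. With equal FPKM totals the median of all genes was -0.19 in place of -0.07 for NCI-H1975 at 5 µM, and -0.12 in place of -0.01 with siDYN-1. Unknown depth limits every value near 1 FPKM.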

Other observations

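The control libraries of the 2 tables, which were normalized separately and differ in treatment, held S100 levels that can be set side by side only as values. S100P was at 22.1 FPKM with siCON and 1.14 FPKM with DMSO in NCI-H1975, and at 14.7 and 5.79 FPKM in HCC827. S100A9 was at 1650 FPKM with siCON and 613 FPKM with DMSO in HCC827. S100A7, an S100 gene of keratinocytes, was at 70.4 and 19.1 FPKM in the same libraries and at no more than 0.85 FPKM in any NCI-H1975 library. S100A2 in NCI-H1975 was at 10.5 FPKM with siCON and 10.2 FPKM with DMSO. S100A13, the gene next to S100A14, overlaps S100A1 on the other strand, so its reads may not all be its own. It was at 639 and 715 FPKM in NCI-H1975 with siDYN-1 and siDYN-2, against 435 FPKM with siCON, and at 272 and 267 FPKM in HCC827, against 190 FPKM. S100A8 in HCC827 was at 99.5 FPKM with siDYN-1 and 25.6 FPKM with siDYN-2, against 56.7 FPKM with siCON.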
